A study of Mus musculus with 6 samples.

Results

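The genes described here are the erythroid transcription factors and the erythropoietin receptor: Gata1, Klf1, Tal1, Nfe2, Gfi1b, Sox6, Lmo2, Zfpm1, Ldb1 and Epor. They were found on the arrays by the RefSeq accession of each probe, and every probe of these genes was taken: 11 probes for 10 genes, out of 39429 probes and 20659 genes with a symbol. RNA was from the spleens of male ICR mice 8 weeks old, an outbred strain, and each of 6 Agilent arrays carried 1 Cy3-labelled sample. Both groups had received the alkylating agent cyclophosphamide (Cy) at 40 mg/kg into the peritoneum for 5 days, which was the study's way of suppressing immunity. The MOD group (the model group; arrays 1, 2 and 3) received no drug after that, and its labels give day 5. The SA-H group (arrays 4, 5 and 6) was then given the high dose of schizandrol A (SA), a lignan of Schisandra fruit, by gavage for 4 weeks, and its labels give 1000 mg/kg/day and day 28. By the protocol in the labels the model mice had water by gavage over the same 4 weeks, while the study's methods give another SA dose and a shorter course, so drug and day of sampling cannot be told apart here. No array of mice without Cy was analysed, the comparison is SA-H against MOD within Cy-treated mice, and nothing states that the arrays came from separate mice, so p-values measure the spread between these arrays.

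The mouse spleen makes red cells throughout life and expands this production under stress, in its red pulp. GATA1 binds GATA letters in DNA and directs most red cell genes, partly through its cofactor FOG1, the product of Zfpm1. TAL1 (SCL), LMO2 and LDB1 assemble with GATA1 into a complex that joins distant enhancers to promoters. KLF1 binds CACCC letters of globin and membrane genes, NFE2 pairs with small MAF proteins, and GFI1B and SOX6 act mainly as repressors. EPOR carries the signal of erythropoietin through JAK2 and STAT5 and keeps erythroid progenitors alive.

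Transcripts of developing red cells were present in this RNA. All 14 heme and iron genes, 23 of 24 red cell membrane and enzyme genes and 6 globin genes were measured above the limit set for testing, as were 15 of 16 genes that mark B cells and 19 of 20 that mark T cells. Only 3 of 12 liver markers passed, although the labels' extraction text speaks of liver powder. Of the 10 regulators, 9 were well above background (the scanner software's call that a spot is brighter than its local background) on all 6 arrays, and Ldb1 on 5.

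Promoter sequence is shown for Sox6, the gene with the largest change of the 10, and for Gata1, Klf1, Tal1, Gfi1b and Epor, because the products of several of these genes are known to bind GATA or CACCC letters in promoters. RefSeq windows of 250 bases before a start site (mouse build GRCm38.p6) were held for 8 of the 10 genes, 16 windows in all, and none for Nfe2 and Lmo2. By RefSeq (GRCm38.p6) the genes lie at chrX:7959260-7976663 (Gata1), chr8:84901982-84905291 (Klf1), chr4:115056426-115071755 (Tal1), chr15:103248212-103258403 (Nfe2), chr2:28609450-28621982 (Gfi1b), chr7:115470872-116040776 (Sox6), chr2:103957903-103981878 (Lmo2), chr8:122281856-122337862 (Zfpm1), chr19:46031525-46048145 (Ldb1) and chr9:21958897-21963576 (Epor). Capitals mark the GATA letters (AGATAA or TGATAA) and the CACCC letters (CCNCNCCC), each searched on both strands. Each line runs 5′ to 3′ along the gene's strand and ends just before the start site. Of 2 windows held for Tal1 the one of the outermost start is shown, and of 6 held for Sox6 the one that holds GATA letters, so that its matches chose it. The windows lie at chrX:7967911-7968160 (minus strand, Gata1), chr8:84901732-84901981 (plus strand, Klf1), chr4:115056176-115056425 (plus strand, Tal1), chr2:28621983-28622232 (minus strand, Gfi1b), chr7:115846141-115846390 (minus strand, Sox6) and chr9:21963577-21963826 (minus strand, Epor).
Gata1: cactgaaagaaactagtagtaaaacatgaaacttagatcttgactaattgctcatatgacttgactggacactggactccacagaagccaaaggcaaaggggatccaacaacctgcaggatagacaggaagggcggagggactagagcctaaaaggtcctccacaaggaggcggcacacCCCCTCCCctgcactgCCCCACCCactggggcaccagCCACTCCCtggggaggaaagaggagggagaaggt
Klf1: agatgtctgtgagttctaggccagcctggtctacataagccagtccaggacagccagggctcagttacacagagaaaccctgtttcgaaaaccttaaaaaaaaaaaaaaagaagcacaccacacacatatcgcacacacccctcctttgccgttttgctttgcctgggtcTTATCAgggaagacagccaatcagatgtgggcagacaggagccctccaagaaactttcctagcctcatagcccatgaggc
Tal1: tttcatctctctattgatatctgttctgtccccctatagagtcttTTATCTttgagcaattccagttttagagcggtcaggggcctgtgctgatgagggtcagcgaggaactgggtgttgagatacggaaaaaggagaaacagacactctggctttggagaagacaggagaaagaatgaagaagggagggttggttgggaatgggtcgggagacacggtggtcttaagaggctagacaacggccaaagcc
Gfi1b: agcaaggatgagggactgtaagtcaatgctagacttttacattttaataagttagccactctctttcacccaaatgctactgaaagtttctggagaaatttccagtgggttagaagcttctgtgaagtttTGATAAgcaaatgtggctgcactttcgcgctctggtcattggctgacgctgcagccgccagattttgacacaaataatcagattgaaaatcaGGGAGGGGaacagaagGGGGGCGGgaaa
Sox6: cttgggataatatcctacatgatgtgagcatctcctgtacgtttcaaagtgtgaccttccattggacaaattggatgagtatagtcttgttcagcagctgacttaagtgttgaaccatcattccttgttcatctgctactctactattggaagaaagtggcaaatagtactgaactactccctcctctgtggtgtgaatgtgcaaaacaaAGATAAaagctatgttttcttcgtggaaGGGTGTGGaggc
Epor: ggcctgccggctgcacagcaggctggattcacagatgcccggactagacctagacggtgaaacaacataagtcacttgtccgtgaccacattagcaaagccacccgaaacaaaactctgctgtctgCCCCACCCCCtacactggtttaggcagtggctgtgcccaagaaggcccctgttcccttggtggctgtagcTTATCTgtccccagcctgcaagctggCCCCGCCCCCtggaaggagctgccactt

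The Epor window held 1 GATA match 48 bases before the start site and a CACCC match 18 bases before it. The letters of that CACCC match are CCCCGCCCCC, because CCNCNCCC also takes GC-rich stretches that do not hold CACCC itself. The Klf1 window held a GATA match 74 bases before the start and the Gfi1b window a GATA match 114 bases before it. The Tal1 window shown held 1 GATA match, 199 bases from the start, and its other window 0 GATA matches and 4 CACCC matches. The Sox6 window shown held a GATA match 34 bases and a CACCC match 4 bases before its start, and its other 5 windows held 0 GATA matches. The Gata1 window held 3 CACCC matches and 0 GATA matches, and a count of 0 says only that those letters are not in these bases. Over the 16 windows of the regulators, 6 held GATA letters and 10 held CACCC letters, counting matches of CCNCNCCC that overlap each other. Of 32851 mouse promoter windows of the same length, 16.6% held GATA letters and 45.9% held CACCC letters. The E-box letters of TAL1 (CAGNTG) were in 7 of the 16 windows and in 44.8% of all windows. A match is a description of the letters and not a binding site.

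Levels below are the log2 processed signal minus the 75th percentile of that array, so that 0 is the brightness below which 75% of its spots lie, and a change is the SA-H mean minus the MOD mean. All 10 regulators had a lower mean in the SA-H group, with a median change of -0.65 against -0.04 over all 14474 genes and unnamed targets tested, of which 52.3% were below 0. By limma, 2 of the 10 (Sox6 and Lmo2) had an unadjusted p under 0.05, both of them lower, where 12.5% of all tested genes were lower at that p. Only Sox6 also changed by at least 2-fold, the limit for a call here, and 5.03% of all tested genes were called lower. In 3 of the 10 (Sox6, Klf1 and Lmo2) every SA-H array lay below every MOD array, as did 20.7% of all tested genes. After Benjamini-Hochberg adjustment in limma 0 of the 10 and 0 of 14474 passed 0.05, where 3377 had an unadjusted p under 0.05, and in a plain test of each gene without moderation 0 passed and 2828 did so unadjusted. The number passing adjustment moved with the processing: it was 1094 with arrays scaled by their median, 1075 with scan day as a block, 210 with normexp and 1779 in the authors' value table. Sox6 passed in each of these 4. With scan day as a block, SA-H array 5 does not enter the change, because it is alone on its day. The number of regulators at an unadjusted p under 0.05 changed whichever 1 array was left out, most without SA-H array 4. Without that array 7 of the 10 had such a p in limma and 3 were called, all of them lower. In that fit 3406 of 14474 tested had such a p, in either direction, and 507 were called lower. Without any other single array 1 of the 10 had such a p, which was Sox6, and it was called. In those fits 1729 to 3353 of all tested had such a p. In bulk RNA such as this, fewer erythroid cells and less RNA per cell cannot be told apart.

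**Figure D1:**
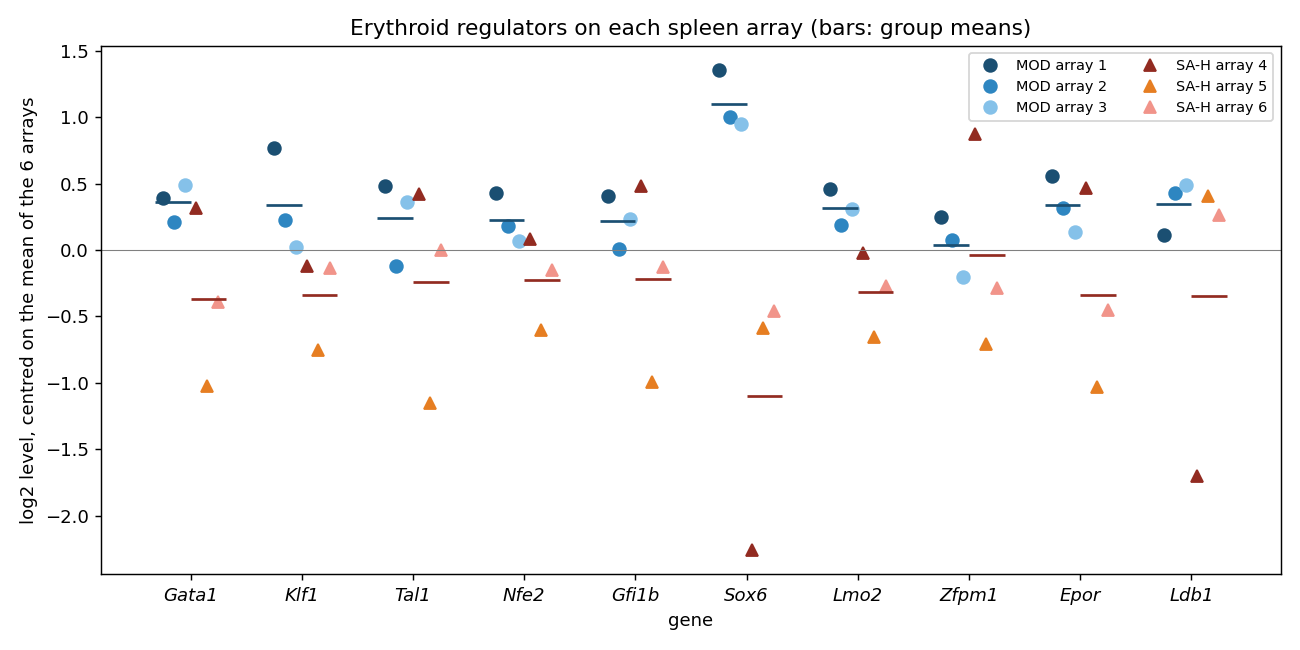
The log2 level of each of the 10 genes on each array, centred on the mean of the 6 arrays, with circles for MOD arrays, triangles for SA-H arrays and bars for the 2 group means. SA-H array 5 is the lowest point for 8 genes, and SA-H array 4 is the lowest for Sox6 and Ldb1 and the highest for Gfi1b and Zfpm1.

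Gata1, the master factor of the red cell line, was at 4.16, 3.98 and 4.25 on MOD arrays 1 to 3 and at 4.08, 2.74 and 3.38 on SA-H arrays 4 to 6. SA-H arrays 5 and 6 lay below all MOD arrays, while array 4 lay among them. The mean was 4.13 ± 0.14 (SD, n = 3) in MOD and 3.40 ± 0.67 (SD, n = 3) in SA-H. The change was -0.73 (SE 0.36, 95% interval -1.57 to 0.11), with an adjusted p of 0.261 in limma, and without SA-H array 4 it was -1.07 at an unadjusted p of 0.00613. Zfpm1, whose product FOG1 is the cofactor of GATA1, was measured by 2 probes. The probe that stands for the gene was at 3.66, 3.49 and 3.21 on the MOD arrays and at 4.29, 2.70 and 3.13 on the SA-H arrays. SA-H array 4 was the highest of the 6 and array 5 the lowest. Its change was -0.08 (SE 0.42, 95% interval -1.07 to 0.91). The second probe gave the same order of extremes, with 3.97 on array 4, 2.46 on array 5 and a change of 0.01.

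Klf1, the factor of globin and membrane genes, was at 5.23, 4.68 and 4.47 on the MOD arrays and at 4.33, 3.70 and 4.32 on the SA-H arrays. The groups did not overlap, but MOD array 3 and SA-H array 4 were separated by less than the spread within either group. The change was -0.68 (SE 0.31, 95% interval -1.40 to 0.05), with an adjusted p of 0.235 in limma. Nfe2, the large subunit of the NF-E2 factor, was at 3.82, 3.57 and 3.46 in MOD and at 3.48, 2.79 and 3.24 in SA-H. SA-H array 4 lay between MOD arrays 2 and 3 and the other SA-H arrays lay below them. The change was -0.45 (SE 0.27), with an adjusted p of 0.337 in limma.

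Among the members of the TAL1 complex, Tal1 itself was at 4.67, 4.07 and 4.55 in MOD and at 4.61, 3.04 and 4.19 in SA-H. Its groups overlapped on 2 of the 3 SA-H arrays, and array 5 alone was low. The change was -0.48 (SE 0.43), with an adjusted p of 0.505 in limma, and it was -0.03 without SA-H array 5. Lmo2, the bridging subunit, was at 4.10, 3.83 and 3.95 in MOD and at 3.62, 2.99 and 3.37 in SA-H. Every SA-H array was below every MOD array, and the MOD arrays were close together. Lmo2 changed by -0.63 (SE 0.25, 95% interval -1.23 to -0.035), with an unadjusted p of 0.0409 and an adjusted p of 0.198 in limma. Without SA-H array 4 the unadjusted p was 0.0126, while without MOD array 1, 2 or 3 or SA-H array 5 or 6 it lay between 0.0694 and 0.133.

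Ldb1, the dimerizing subunit that holds enhancers and promoters together, was at -0.40, -0.08 and -0.02 in MOD and at -2.21, -0.10 and -0.25 in SA-H. SA-H arrays 5 and 6 lay within the MOD range, and SA-H array 4, on which the probe was not well above background, lay far below. The change of -0.69 (SE 0.56, 95% interval -1.99 to 0.62) was -0.01 without that array. The processed signal of its probe was 47.4 on array 4 and 365 to 809 on the other 5 arrays.

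Gfi1b, a repressor needed for red cell and platelet formation, was at 2.53, 2.12 and 2.35 in MOD and at 2.60, 1.12 and 1.99 in SA-H. The highest and the lowest of the 6 values were both in SA-H. Its change was -0.43 (SE 0.39), with an adjusted p of 0.514 in limma, and it was -0.04 without SA-H array 5. Sox6, which silences embryonic globin genes and helps late red cell maturation, was at 1.64, 1.29 and 1.24 in MOD and at -1.97, -0.30 and -0.17 in SA-H. Every SA-H array was below every MOD array, and the distance from the lowest MOD array to the highest SA-H array exceeded the whole MOD range. Sox6 fell by 2.20 on the log2 scale (SE 0.49, 95% interval -3.35 to -1.05), which is 4.60-fold, from 1.39 ± 0.22 (SD, n = 3) to -0.81 ± 1.01 (SD, n = 3). The unadjusted p was 0.00261 and the adjusted p was 0.0890 in limma. Over the 17 alternatives that gave a test, 17 kept the call, with adjusted p from 1.63e-04 to 0.447. Of the tested genes with a symbol, 18 had a lower change than Sox6. The size leaned on array 4, where the signal was 56.0 but still well above background. Without it the change was -1.62 at an unadjusted p of 3.24e-04.

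Epor, the receptor, was at 3.59, 3.35 and 3.17 in MOD and at 3.50, 2.0 and 2.58 in SA-H. SA-H arrays 5 and 6 lay below all MOD arrays and array 4 lay within their range, as for Gata1. The mean was 3.37 ± 0.21 (SD, n = 3) in MOD and 2.69 ± 0.76 (SD, n = 3) in SA-H. The change was -0.67 (SE 0.40, 95% interval -1.61 to 0.26), with an adjusted p of 0.329 in limma. Without SA-H array 4 it was -1.08 at an unadjusted p of 0.00643, and without SA-H array 5 it was -0.33.

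**Figure D2:**
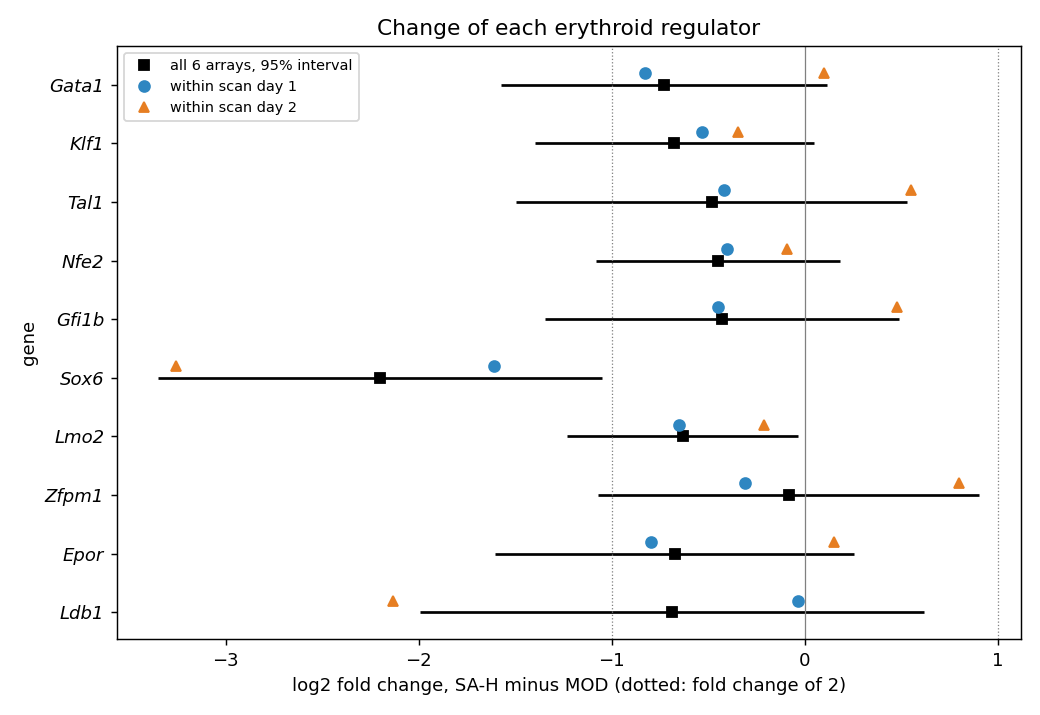
The log2 fold change of each gene, SA-H minus MOD, from the limma fit on all 6 arrays (squares, with 95% intervals), within scan day 1 (circles; 2 MOD arrays and 1 SA-H array) and within scan day 2 (triangles; 1 array of each group). The intervals of Sox6 and Lmo2 lie below 0, and within scan day 2 the values of Gata1, Tal1, Gfi1b, Zfpm1 and Epor lie above 0.

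The arrays were scanned on 3 days. Day 1 held MOD arrays 1 and 3 and SA-H array 6, day 2 held MOD array 2 and SA-H array 4, and day 3 held SA-H array 5 alone. Within day 1 all 10 regulators were lower in SA-H, with a median of -0.49, among them Gata1 at -0.83, Epor at -0.80, Lmo2 at -0.65, Klf1 at -0.53 and Sox6 at -1.61. Within day 2 the median was 0.0032. There Sox6 was at -3.26, Ldb1 at -2.13, Klf1 at -0.35, Lmo2 at -0.21 and Nfe2 at -0.09, while Zfpm1 was at 0.80, Tal1 at 0.55, Gfi1b at 0.48, Epor at 0.15 and Gata1 at 0.10. Neither day has replicates in both groups, so these are values without a test. Within day 1, SA-H array 6 was scanned at another time than MOD arrays 1 and 3, whose scan times were equal. The day 1 values therefore cannot separate group from scan time. Within day 2 the scan times of MOD array 2 and SA-H array 4 were equal. With scan day as a block in limma the median was -0.41, Sox6 changed by -2.32 with an adjusted p of 0.0267, and the other 9 had an unadjusted p above 0.05. SA-H array 5 is alone on its day, so the block takes up its level. The change in that fit thus rests on SA-H arrays 4 and 6 against the MOD arrays.

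The 10 genes were also compared with each other by the root mean square difference of their centred levels over the 6 arrays, given as a description. The closest pairs were Tal1 with Gfi1b at 0.119, Nfe2 with Lmo2 at 0.121, Klf1 with Nfe2 at 0.175 and Gata1 with Epor at 0.176. The most unlike pair was Sox6 with Zfpm1 at 1.49. Sox6 was nearest to Ldb1, at 0.807, and at 1.04 or more from each other member. The median centred level of the 10 was 0.44, 0.20 and 0.27 on the MOD arrays, 0.20 on SA-H array 4, -0.73 on array 5 and -0.21 on array 6. That of all tested genes lay between -0.11 and 0.07. So array 4 was near the MOD arrays for most of these genes and array 5 was the lowest.

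Among 9098 other named genes well above background on all 6 arrays, the closest to Gata1 were Usp32 at 0.0498, Samd1 at 0.0503 and Cyp4b1-ps2 at 0.0849. The closest to Sox6 were Slc30a9 at 0.116, the mitotic spindle gene Nusap1 at 0.247 and Fam120a at 0.263. The list for Lmo2 held Bcl2l1, the survival gene of erythroblasts, at 0.0557, and that for Klf1 held the spindle checkpoint gene Mad2l1 at 0.0931. The closest to Tal1 was Neu3 at 0.0805, to Nfe2 the proteasome gene Psma1 at 0.0535, to Gfi1b Cox11 at 0.0469 and to Epor the histone gene H2bc18 at 0.0940. The list for Zfpm1 held Slc25a38, the mitochondrial glycine carrier of heme synthesis, at 0.104. These distances rest on 6 arrays and carry no test.

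Partners of the regulators were taken from lists written for this account. Of 10 tested members of the LDB1 and SCL complexes, 3 were lower at an unadjusted p under 0.05 and called, with a median of -0.11 over the list. Among all tested genes 12.5% were lower at that p and 5.03% were called lower. Ssbp3, whose product protects LDB1 from degradation, was at 2.09, 1.66 and 2.21 in MOD and at 0.95, 0.30 and 0.81 in SA-H, without overlap. It fell by 1.31 (SE 0.28, unadjusted p 0.00222, adjusted p 0.0884 in limma). The E proteins Tcf3 and Tcf12, the DNA-binding partners of TAL1, fell by 1.10 (SE 0.34) and by 1.11 (SE 0.46). Their adjusted p was 0.134 and 0.206 in limma. Without SA-H array 4 the change of Tcf12 was -0.57, and without MOD array 1, 2 or 3 its unadjusted p was 0.0582 to 0.116. Of 12 tested corepressors of FOG1 and GFI1B, 2 were lower (the deacetylase Hdac1, -0.70, and the histone chaperone Rbbp4, -0.67) and 1 was higher (the NuRD subunit Gatad2a, 0.76). In this list 0 were lower without MOD array 1, 2 or 3 or SA-H array 6, only 1 was without SA-H array 5, and Gatad2a did not pass without MOD array 1 or 2 or SA-H array 6. Of 5 tested partners of NFE2, the small MAF gene Mafk was lower at -0.60 (unadjusted p 0.0340, adjusted p 0.185 in limma), which was lost without MOD array 1 or 2 or SA-H array 5.

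Of 16 tested genes of erythropoietin signalling, 2 were lower at an unadjusted p under 0.05, where 12.5% of all tested genes were, and the median was -0.10. Bcl2l1 was at 5.42, 5.19 and 5.35 in MOD and at 4.94, 4.23 and 4.63 in SA-H, without overlap, and fell by 0.72 (SE 0.26, adjusted p 0.172 in limma), but without any 1 array other than SA-H array 4 its unadjusted p was 0.0506 to 0.0926. The kinase gene Pim1, a STAT5 target, changed by -1.37 but was well above background on only 4 arrays, and without SA-H array 4 it was at -0.85. Cbl, whose product turns over activated receptors, was at -1.65 (SE 0.72) and Cish, a STAT5 target that dampens the receptor, at 0.45 (SE 0.26), both with an unadjusted p above 0.05, and without SA-H array 4 Cbl was at -0.73. Jak2, Stat5a and Stat5b, named after their values were seen because they carry the receptor's signal, were at 0.30 (SE 0.30), -0.06 (SE 0.25) and 1.16 (SE 0.91). Stat5b was at 7.33 on SA-H array 4 and between 3.70 and 5.69 on the other arrays. The number lower in this list was 1 without MOD array 1 or 2, 0 without MOD array 3 and 4 without SA-H array 4.

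Of 10 tested other regulators of the erythroid choice, 2 were called lower and 1 higher, where 5.03% of all tested genes were called lower and 7.74% higher. Tfdp2, a dimer partner of E2F factors, was at 4.07, 4.04 and 3.85 in MOD and at 2.82, 2.81 and 3.02 in SA-H. The groups lay far apart, and Tfdp2 fell by 1.10 (SE 0.22, unadjusted p 0.00139, adjusted p 0.0822 in limma). Klf13 fell by 1.16 (SE 0.40), or by 0.70 without SA-H array 4. Zbtb7a, a repressor of fetal globin, rose by 1.10 (SE 0.30, adjusted p 0.109 in limma). The number lower was 1 without MOD array 1 or without MOD array 3.

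**Figure D3:**
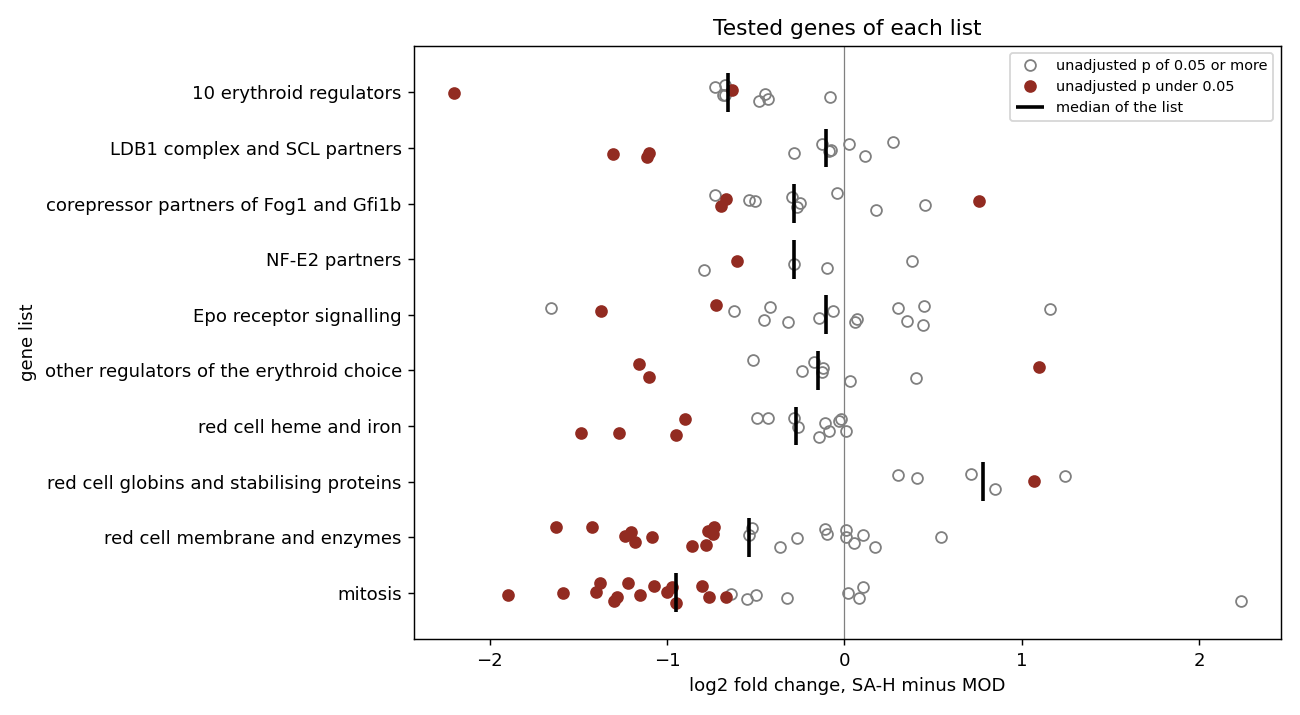
The log2 fold change, SA-H minus MOD, of each tested gene of the 10 regulators and of 9 other lists, with filled points for an unadjusted p under 0.05 in limma and a bar for the median of each list. The medians run from -0.95 for the mitosis genes to 0.78 for the globin genes, and that of the 10 regulators is -0.65.

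The lists of red cell genes did not move as one. Of 23 tested red cell membrane and enzyme genes, 11 were lower and 0 higher at an unadjusted p under 0.05, 6 were called lower, and the median was -0.54. Over all tested genes 12.5% were lower at that p and 5.03% were called lower. Epb42, a gene of the red cell membrane skeleton, was at 2.60, 2.49 and 1.52 in MOD and at 0.45, 0.56 and 0.72 in SA-H. It fell by 1.62 (SE 0.33, adjusted p 0.0841 in limma), and the SA-H arrays were close together below all MOD arrays. Xpo7, a nuclear exporter, fell by 1.20 and Trim10, a gene of terminal differentiation, by 1.24. Slc4a1, the gene of the band 3 anion exchanger, named after its values were seen, was at 0.17 (SE 0.35). Without MOD array 1 the number lower was 5, and without MOD array 2 it was 7.

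Of 14 heme and iron genes, 4 were lower at an unadjusted p under 0.05 and 0 higher, with a median of -0.27. At that p 12.5% of all tested genes were lower. Snx3, an endosome protein that recycles the transferrin receptor, fell by 1.48 (SE 0.49), or by 0.93 without SA-H array 4. Isca1, an iron-sulfur assembly gene, fell by 1.27 (SE 0.35) and the synthesis enzyme Alad by 0.90 (SE 0.25). Alas2, the rate-limiting erythroid enzyme, named after its values were seen, was at -0.09 (SE 0.30). Without MOD array 1 the number lower was 2.

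The globin genes lay the other way. All 6 tested were above 0, with a median of 0.78 that was 0.33 with SA-H array 4 left out and 1.15 with array 5 left out, and 1 of them, Hbb-bt, rose at an unadjusted p under 0.05, as did 10.8% of all tested genes. It was at 7.13, 7.40 and 6.79 in MOD and at 9.03, 7.32 and 8.18 in SA-H, so that SA-H array 5 lay among the MOD arrays. The rise was 1.07 (SE 0.44, unadjusted p 0.0453, adjusted p 0.205 in limma), and without any 1 array other than SA-H array 5 its unadjusted p was 0.0512 to 0.131. The number of globin genes higher was 3 without SA-H array 5 and 0 without MOD array 1 or 3 or SA-H array 4. The alpha globin genes Hba-a1 and Hba-a2 were at 0.71 (SE 0.41) and 0.85 (SE 0.44). Globin copies are near-identical, so their probes can share transcripts. The median was 0.46 when arrays were scaled by their median and 0.23 after quantile normalization, but -1.58 in the authors' value table, so this direction depends on the source of the values.

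**Figure D4:**
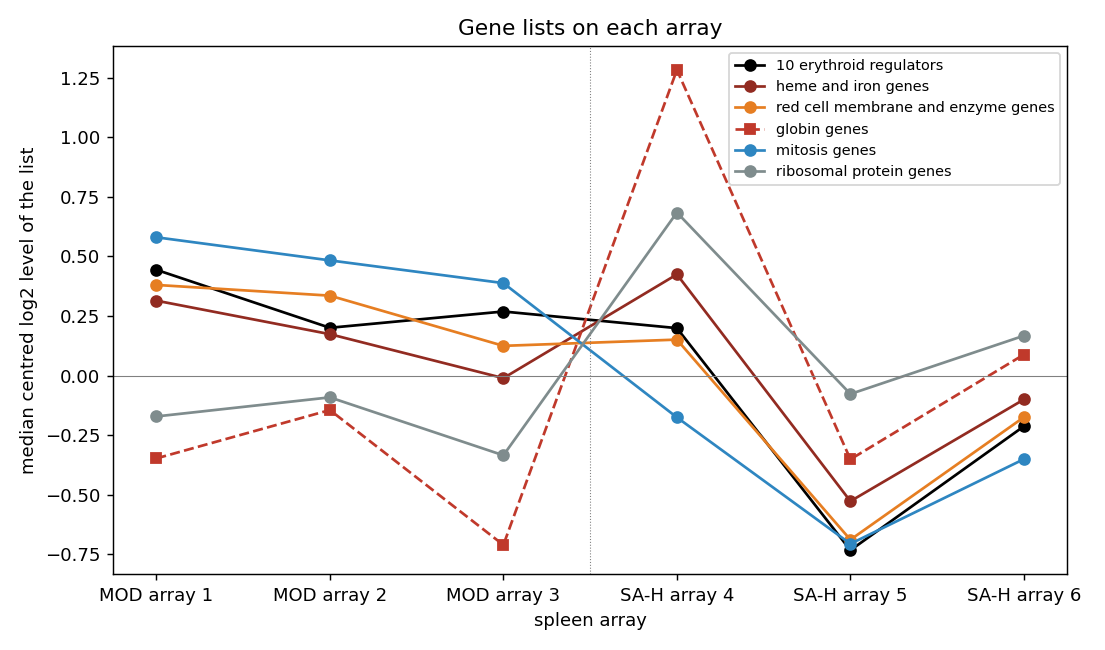
The median centred log2 level of each list on each of the 6 arrays, with the MOD arrays left and the SA-H arrays right of the dotted line. The 10 regulators, the heme and iron genes and the membrane and enzyme genes are lowest on SA-H array 5, and the globin and ribosomal protein genes are highest on SA-H array 4, at 1.28 and 0.68.

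Other gene groups were looked at beside the regulators, and their part in these results was not tested. Genes are counted here as lower or higher at an unadjusted p under 0.05 in limma. Over all tested genes 12.5% were lower and 10.8% higher at that p. Of 23 tested mitosis genes, 15 were lower and 0 higher, with a median of -0.95. Their summed level (a sum of signals over the array's 75th percentile) was 181 to 197 on the MOD arrays and 92.1 to 221 on the SA-H arrays, while that of the 10 regulators was 113 to 146 and 57.2 to 122. Of 24 ribosomal protein genes, the list for RNA quality, 4 were higher and 1 lower, with summed levels of 1460 to 1735 and 1730 to 3422. The number higher was 1 without MOD array 1 or 3 or SA-H array 4, and it reached 7 without SA-H array 5. Of 6 tested fat markers 5 were lower, with summed levels of 9.45 to 13.8 in MOD and 5.02 to 5.97 in SA-H, and 3 were lower without MOD array 1. In SA-H, 4 of these 6 were not well above background on 1 or 2 arrays and were kept through their MOD arrays, and of the 2 well above background on all 6 arrays 1 was lower, with a median of -0.51. The fat markers' median centred level was 1.51, 1.18 and 0.86 in MOD and -2.55, -0.41 and -0.40 in SA-H. Sox6 had centred levels near these, at 1.36, 1.00 and 0.95 in MOD and -2.26, -0.59 and -0.46 in SA-H. A link between them was not tested. Of 12 tested red pulp macrophage markers, 10 were below 0, 1 was lower and 1 higher, with a median of -0.58 and summed levels of 122 to 153 in MOD and 80.4 to 142 in SA-H, and the median was -0.22 without SA-H array 4. Of 11 tested neutrophil markers, 7 were below 0, 2 were lower and 1 higher, with a median of -0.42 and summed levels of 280 to 373 in MOD and 279 to 857 in SA-H, and the median was -0.24 without MOD array 1 and -0.12 with SA-H array 5 left out. Of 14 tested megakaryocyte markers, genes of the cell type that also uses Gata1, Tal1, Nfe2, Gfi1b and Zfpm1, 1 was lower (Thbs1, -0.91) and 0 were higher. Their summed level was 94.8 to 110 in MOD and 89.9 to 130 in SA-H, and their median change was 0.09.

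The arrays differed in brightness. The 75th percentile of processed signal was 599 to 840 on the MOD arrays and 220, 868 and 433 on SA-H arrays 4, 5 and 6, and between 43.1% and 73.9% of spots were well above background. SA-H array 4 thus had the lowest percentile and array 5 the highest, and the part of brightness in the values of these arrays was not tested.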

How the data were processed

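The arrays were scanned and extracted by the authors with Agilent Feature Extraction 11.0.1.1, and the deposited intensity values are linear processed signals, background-subtracted per the file headers and not normalized between arrays. A value table on the log2 scale was also deposited; how the authors made it is not given in the sources used here. Signals were taken as log2 minus the 75th percentile of each array over 43020 spots, outlier spots were left out (500 probes had no other spot on an array), and a probe stayed in if the 3 arrays of at least one group all had it well above background. The brightest kept probe stood for a gene. SA-H was compared with MOD by limma 3.58.1 in R 4.3.3, with adjustment over all 14474 tested targets, of which 11005 had a symbol. A call needed at least a 2-fold change together with an unadjusted p under 0.05. The genes and lists were chosen with earlier results of these data known. Besides the 10 genes, up to 4 genes of each list with the smallest p are named (some are not reported here), and the 3 nearest genes by pattern were sought for each of the 10 that was well above background on all arrays. Normexp (offset 50) used median spot signals. Other alternatives were median scaling, quantile normalization, other probe filters, scan day or slide scan as a block, the value table, an ANOVA (named in the methods for other data) and leaving out each array. A slide scan means arrays with the same scan time in their file headers, and slide names were not read. The number of arrays limits the precision. The fit was tested on simulated data. Figures were drawn with matplotlib 3.10.9 in Python 3.11.15.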

Additional observations from a re-analysis of the deposited data

How the results depend on the processing

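The 10 regulators' number at an unadjusted p under 0.05 (2 as reported) was 6 with normexp, 5 with scaling by the median, 6 with quantile normalization, 1 with no filter on dim probes, 1 with scan day as a block, 1 with slide scan as a random block and 9 in the authors' value table. Leaving out 1 array gave 1 to 7. Over all 14474 tested, in either direction, the number at such a p was 3377 as reported. It was 3512 with normexp, 3245 with scaling by the median, 3433 with quantile normalization and 4726 in the value table. With scan day as a block it was 4438 and with slide scan as a random block 3886. With no filter on dim probes it was 3106 of 32102. The number called (1 as reported) was 3 with scaling by the median and 8 in the value table, and 1 to 3 with 1 array left out. All of these were lower. Of all 14474 tested, 728 were called lower as reported, 2161 with scaling by the median and 1002 in the value table. The median change (-0.65 as reported) was -0.97 with scaling by the median, -0.41 with scan day as a block, -0.53 with slide scan as a random block, -2.22 in the value table, -0.49 within scan day 1 and 0.0032 within scan day 2, and -0.78 to -0.36 with 1 array left out. Scaling by the median moved the median of all tested genes to -0.36, and relative to it the 10 regulators lay at -0.61, as they did in the reported fit. All genes called (1849 as reported) were 3158 with scaling by the median and 1135 by the methods' ANOVA, and 1228 to 2466 with 1 array left out. Of all genes called, 60.6% were higher as reported, 31.6% with scaling by the median, 49.8% with quantile normalization and 23.3% in the value table.

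Zfpm1 was at 0.17 with scan day as a block and 0.086 with slide scan as a random block, and between -0.54 and 0.25 with 1 array left out (0.02 without MOD array 1, 0.25 without SA-H array 5, 0.04 without SA-H array 6). Ldb1 was at 0.16 in the value table. Within scan day 2, Gata1 was at 0.10, Tal1 at 0.55, Gfi1b at 0.48, Zfpm1 at 0.80 and Epor at 0.15. The cause was not tested. Requiring probes well above background on all 6 arrays gave no value for Ldb1. The columns of the value table followed their own scanner array best in 3 of 6 cases (r of centred levels -0.27 to 0.47 over 13894 probes), so its centring and its match to the arrays are unknown. No paired analysis was possible because the labels number the arrays 1 to 3 in one group and 4 to 6 in the other. With 3 arrays a group and dim signal on SA-H array 4, changes of probes near background there are poorly bounded.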

Other observations

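Marker genes of other blood lineages, are given here by their genes with the smallest p. Of 7 tested mast cell, basophil and eosinophil markers, cells that also use Gata1 and Gfi1b, 4 were below 0, with a median of -0.06. At an unadjusted p under 0.05 in limma 1 was higher and 1 lower, where 10.8% of all tested genes were higher and 12.5% lower. Hdc, the histidine decarboxylase of basophils and mast cells, rose by 1.15 (SE 0.27, unadjusted p 0.00329, adjusted p 0.0918 in limma). Prss34 and Prg2 were at -0.88 and -0.70, both with an unadjusted p above 0.05, and Prg2 was at 0.09 without SA-H array 4. Cpa3, a mast cell protease, changed by -1.67 (SE 0.45) but was well above background on only 4 arrays. Of 12 tested markers of red pulp macrophages, the cells that clear old red cells, 10 were below 0, with a median of -0.58. Spic, the defining factor of these cells, rose by 0.86 (SE 0.26, adjusted p 0.130 in limma). C1qa, a complement gene, was at -2.34 (SE 0.93), was well above background on 5 arrays and was at -1.14 without SA-H array 4. Of 11 tested neutrophil markers, the granule protein genes Ctsg and Ngp fell by 1.07 (SE 0.26) and by 0.94 (SE 0.24), and the collagenase gene Mmp8 was at 0.71 (SE 0.29). In none of these lists did a gene pass an adjusted p of 0.05 in limma.

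Of 23 tested S phase genes, 8 were lower and 0 higher at an unadjusted p under 0.05, and 6 were called lower, with a median of -0.36. Over all tested genes 12.5% were lower at that p and 5.03% were called lower. Mcm2, a subunit of the replicative helicase, was at 3.94, 3.77 and 3.98 on the MOD arrays and at 2.55, 2.64 and 2.35 on the SA-H arrays, without overlap. The number of S phase genes lower was 5 without MOD array 1. Of 15 tested B cell markers 10 were below 0, with a median of -0.11. At an unadjusted p under 0.05 in limma 3 of them were higher and 0 lower, where 10.8% of all tested genes were higher. The number higher was 1 without MOD array 1 and 0 with scaling by the median. Of 19 tested T cell markers 0 passed an unadjusted p of 0.05 in limma, and 3 were higher without MOD array 3.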
